A study of Homo sapiens with 9 samples.

Results

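PSMB1, TBP and PDCD2 are neighbouring genes near the end of the long arm of chromosome 6, and the γH2AX regions called over them are described here in FANCL knockout (KO) and wild-type (WT) K562 cells. Every region on chromosome 6 that overlapped the stretch from 170800000 to 170920000 (hg19, 120 kb) was taken, which gave 146 of the 234983 regions in the 8 γH2AX lists. The stretch lay 101 to 221 kb from the last position called on the chromosome in any library. That position was the end of a single region of 0.50 kb in WT mock replicate 2. In every other library the last call on the chromosome lay inside the 120 kb. Positions were assigned to PSMB1 (170844204 to 170862417, 18.2 kb), to TBP (170863421 to 170881958, 18.5 kb), to the 1003 bp between them, to the 44.2 kb proximal of PSMB1, or to the 38.0 kb distal of TBP. PDCD2 is the gene just distal of TBP, and in the RefSeq gene order it was the last protein-coding gene of chromosome 6. Its own hg19 limits were not used here, so its values are those of the whole distal stretch. The locus was selected on its covered length and normalised tag counts in these 8 libraries, so these values are a description. A fit over bins of the whole genome also gives calls at the locus, which are given with the share of all bins called and are not read as support.

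K562 is an established human myelogenous leukaemia line. The study compared FANCL-KO cells with wild-type cells, each given PMA (5 nM, a phorbol ester that makes K562 cells differentiate) or a mock treatment for 72 h. FANCL is the ubiquitin ligase subunit of the Fanconi anaemia core complex. Chromatin was immunoprecipitated with an antibody against γH2AX and sequenced in 4 groups of 2 libraries (KO PMA, KO mock, WT PMA and WT mock), and a 9th library was the input of WT mock cells. The labels do not say whether the KO cells were 1 clone or whether replicates came from separate cultures, and the lists hold no measure of FANCL, so the genotype rests on the labels.

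γH2AX is the histone variant H2AX phosphorylated by kinases of the DNA damage response, and it spreads along chromatin from a break or a stalled fork. The genes of the locus serve basic cell functions. PSMB1 encodes a non-catalytic β subunit of the 20S proteasome core. TBP, the TATA-binding protein, nucleates the preinitiation complexes of all nuclear RNA polymerases. PDCD2 encodes a chaperone-like protein that binds the ribosomal protein RPS2 during ribosome assembly. PSMB1 and TBP are transcribed away from each other, from starts on either side of the short stretch between them, whereas TBP and PDCD2 are transcribed towards each other.

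The promoters of TBP and PDCD2 are shown because called regions stopped short of the TBP start in every library. They are the 250 bases before the annotated start, 5′ to 3′ on the gene's strand, from RefSeq (GRCh38.p14, a later build than that of the regions, with a start that may differ from the hg19 limit used for distances). Of the 3 genes, 2 had an entry. TBP lies at chr6:170554119-170554368 on the plus strand and PDCD2 at chr6:170584638-170584887 on the minus strand. Capitals mark matches to the CCAAT box (CCAAT), the GC box (GGGCGG) and the ETS core (GGAAGT) on either strand.
TBP: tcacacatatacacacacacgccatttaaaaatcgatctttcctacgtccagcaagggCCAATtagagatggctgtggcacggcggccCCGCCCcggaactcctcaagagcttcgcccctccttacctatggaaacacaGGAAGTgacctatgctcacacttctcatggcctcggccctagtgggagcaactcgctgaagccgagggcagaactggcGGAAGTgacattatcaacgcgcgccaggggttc
PDCD2: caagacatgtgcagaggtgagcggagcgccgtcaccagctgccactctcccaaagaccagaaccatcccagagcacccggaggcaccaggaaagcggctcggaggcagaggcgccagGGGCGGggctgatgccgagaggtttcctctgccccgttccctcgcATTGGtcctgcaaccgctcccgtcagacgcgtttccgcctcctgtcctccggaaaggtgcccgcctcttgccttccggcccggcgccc

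Both promoters held 1 CCAAT box, which 32.0% of the 35116 RefSeq promoters hold in the same 250 bases, and 1 GC box, which 42.6% hold. The TBP promoter had 2 ETS cores, starting 111 and 33 bases before the start, and 19.5% of promoters had at least 1. No match to TATAAA (10.7% of promoters), to the YY1 motif GCCATNTT (3.86%) or to the NRF1 motif (5.07%) was found on either strand of these 2 windows. The GC content was 56.0% for TBP and 67.6% for PDCD2, against a median of 58.0% over all promoters. These matches are letters in the sequence and were not linked to the γH2AX values.

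Libraries held 15.6 to 18.3 M tags (M, mega) in KO and 17.0 to 27.2 M in WT, of which 3.42 to 7.96% in KO and 1.39 to 4.69% in WT lay inside regions. By the caller's stated threshold, a window of 500 bp had to reach 7.12 to 7.69 tags per 10 M in KO libraries. In WT libraries it was 5.89 to 7.07 tags per 10 M, so the KO lists could leave out windows that a WT list would keep. The window also had to pass the authors' test against input. The normalised tags of some 500 bp regions lay below their library's threshold, such as 6.88 in KO PMA replicate 2 and 6.73 in KO mock replicate 1. A position outside regions failed one of these criteria and is not shown to lack γH2AX. More cells with the mark and more mark per cell cannot be told apart in these bulk libraries. The share of tags inside regions was higher in both KO groups than in the WT group of the same treatment, and its part in the results was not tested.

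γH2AX regions covered the locus densely in WT cells under both treatments and sparsely in KO cells. Called regions took up 8.82 and 13.2 kb of the 120 kb in KO PMA and 3.58 and 4.19 kb in KO mock, against 57.2 and 43.4 kb for WT PMA libraries and 55.6 and 40.3 kb for WT mock libraries. Every KO library lay below every WT library. KO PMA averaged 11.0 ± 3.13 kb, which was 0.219-fold the 50.3 ± 9.77 kb of WT PMA (SD, n = 2 each). KO mock averaged 3.89 ± 0.431 kb, which was 0.0812-fold the 47.9 ± 10.8 kb of WT mock (SD, n = 2 each). Between treatments of WT cells the libraries overlapped, with 1.05-fold as much covered length under PMA as under mock, while in KO cells PMA libraries held 2.84-fold as much as mock libraries and did not overlap with them. As a common tag threshold, only regions whose mean tags per 500 bp reached the highest threshold (7.69 per 10 M) were kept. The log2 differences were then −2.80 between KO PMA and WT PMA and −3.16 between KO mock and WT mock. The lists as called gave −2.10 and −3.31. This filter on region means is stricter than the caller's rule for windows. It cut KO mock replicate 2, whose own threshold was the highest, from 24340 to 21718 regions.

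The normalised tags inside these regions, scaled by the authors to 10 M tags per library, followed the covered length. They summed to 140 and 215 in KO PMA and to 63.5 and 76.3 in KO mock, against 1130 and 854 in WT PMA and 989 and 667 in WT mock. Per kb covered the libraries lay close together, at 15.9 and 16.2 tags in KO PMA, 17.7 and 18.2 in KO mock, 19.7 and 19.7 in WT PMA and 17.8 and 16.6 in WT mock. The caller's tag threshold equals 14.2 to 15.4 tags per kb in KO libraries and 11.8 to 14.1 in WT libraries. Densities of called regions are limited by it, so like densities say little about the groups. It was not a strict floor for whole regions, whose lowest density was 11.6 tags per kb, in WT mock replicate 2 with a threshold of 12.8. The locus also weighed differently in its library: it held 0.0207 and 0.0383% of all covered length in KO PMA and 0.0205 and 0.0238% in KO mock, against 0.182 and 0.174% in WT PMA and 0.564 and 0.478% in WT mock. Over the whole library, covered length was longer in KO than in WT under each treatment, at 42.6 and 34.6 Mb in KO PMA against 31.5 and 24.9 Mb in WT PMA, and 17.5 and 17.6 Mb in KO mock against 9.85 and 8.42 Mb in WT mock.

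**Figure D1:**
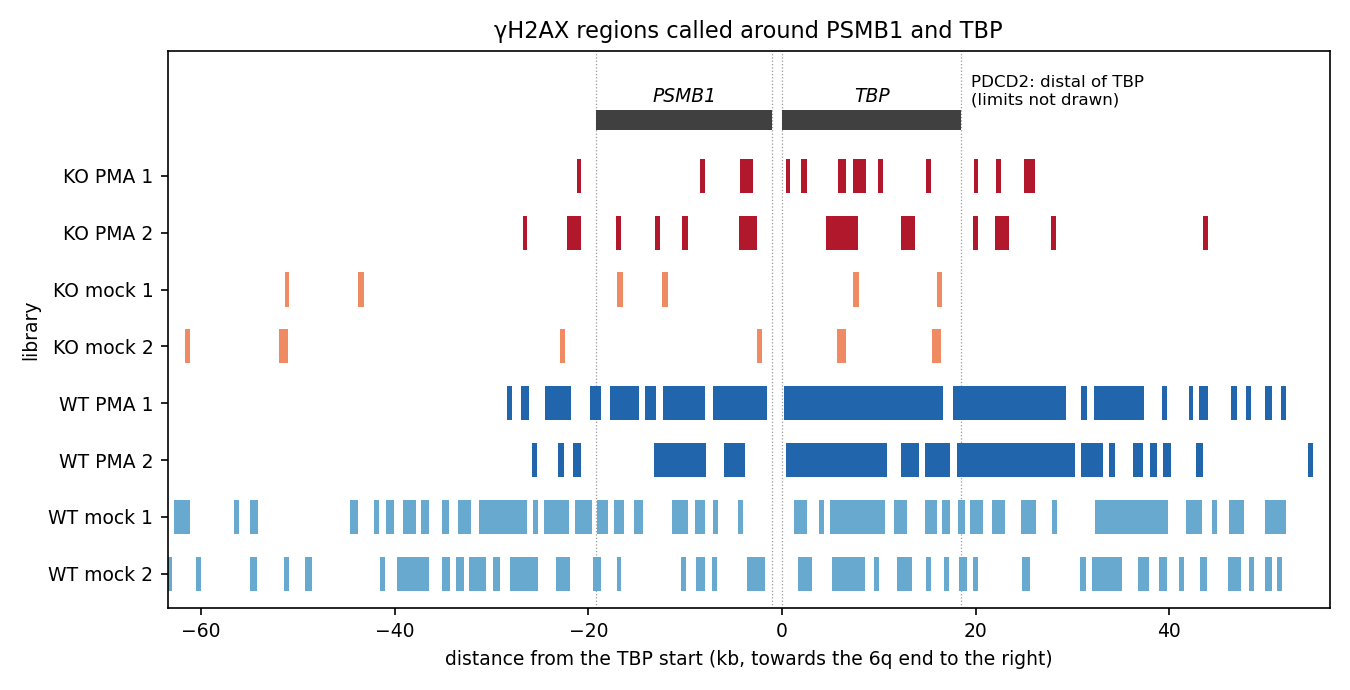
Regions called in each of the 8 libraries (rows) along the 120 kb, by distance from the TBP start in kb, with the limits of PSMB1 and TBP as bars and dotted lines. In WT PMA the longest regions fill most of TBP and the stretch just beyond it, in WT mock the regions are spread over the whole 120 kb, and in KO libraries there are 6 to 12 of them.

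The regions differed in length as well as in number. There were 12 and 12 in KO PMA, 6 and 6 in KO mock, 19 and 16 in WT PMA, and 37 and 38 in WT mock. The longest measured 1355 and 3286 bp in KO PMA, 668 and 937 bp in KO mock, 16402 and 12232 bp in WT PMA, and 7563 and 3459 bp in WT mock. WT PMA thus held fewer regions than WT mock, with a few much longer ones among them. Of the 146 regions, 9 reached 5 kb, all in WT libraries (4 and 3 in WT PMA, 2 in WT mock replicate 1), and 46 had the smallest length of 500 bp. Over whole lists the median length was 500 bp in every library but KO PMA replicate 1, where it was 626 bp. How many regions of the whole lists reached 5 kb was not counted. In the whole lists, 10184 of 42896 and 8031 of 37893 regions reached 1000 bp in KO PMA. In WT PMA it was 6095 of 42546 and 4026 of 36252. Under mock it was 3068 of 24773 and 3227 of 24340 in KO, and 1293 of 14324 and 1147 of 11959 in WT. At the locus 3 and 5 regions reached 1000 bp in KO PMA and 0 in each KO mock library. The counts there were 9 and 8 in WT PMA and 20 and 12 in WT mock. The median length was 500 and 578 bp in KO PMA, 634 and 672 bp in KO mock, 836 and 994 bp in WT PMA, and 1112 and 773 bp in WT mock, so that the medians of WT PMA and WT mock overlapped.

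**Figure D2:**
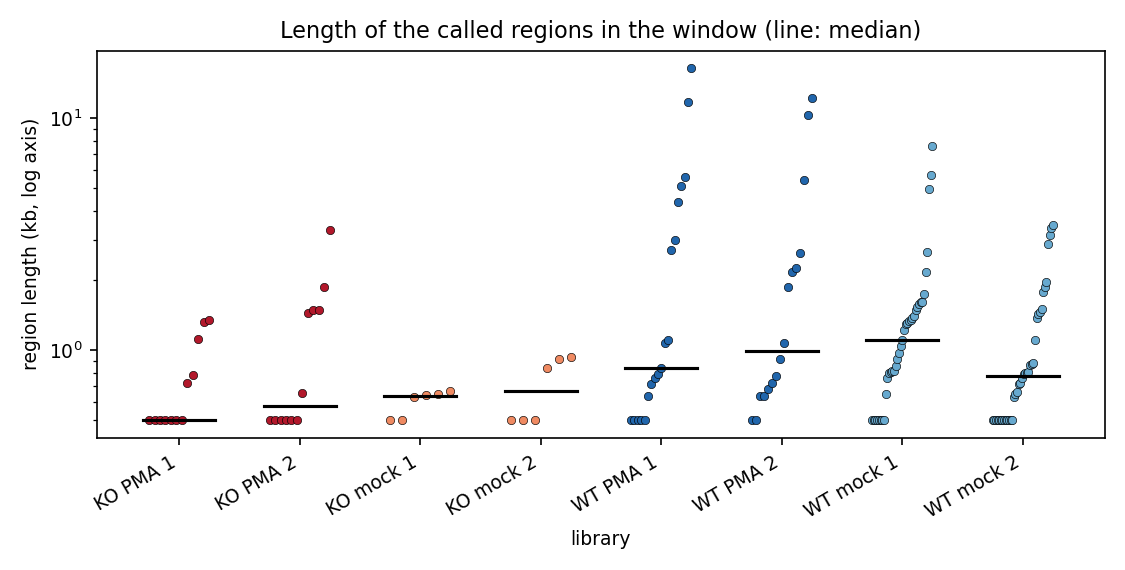
Length of each called region in kb on a log axis, by library, with the median as a line. The 4 regions of at least 10 kb are in the 2 WT PMA libraries, and no KO region exceeds 3.29 kb.

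TBP was covered over more of its length than PSMB1 in both WT PMA libraries. Regions covered 4.36 and 4.77 kb of its 18.5 kb in KO PMA and 1.13 and 1.76 kb in KO mock, against 17.3 and 15.4 kb in WT PMA, with 11.2 and 8.19 kb in WT mock. As a share of the gene these were 23.5 and 25.8% in KO PMA, 6.08 and 9.48% in KO mock, 93.4 and 83.0% in WT PMA, and 60.6 and 44.2% in WT mock. No pair of groups overlapped, and the order was KO mock, KO PMA, WT mock, WT PMA from the least to the most covered. KO PMA held 0.279-fold the covered length of WT PMA, and KO mock 0.149-fold that of WT mock. The normalised tags of the TBP regions summed to 75.6 and 78.7 in KO PMA and 21.3 and 29.5 in KO mock, against 365 and 304 in WT PMA, with 221 and 135 in WT mock. By these tags, PMA libraries held 1.88-fold as much as mock libraries in WT and 3.04-fold as much in KO. By covered length they held 1.68-fold as much in WT and 3.17-fold as much in KO. The difference between the WT and KO responses was not tested.

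The longest TBP region was called in WT PMA replicate 1. It ran from 170863626 to 170880028, from 205 bp after the TBP start to 1930 bp before its end, with 345 normalised tags and 3.46-fold over input by the authors' ratio. In WT PMA replicate 2 the first region began 437 bp after the start, at 170863858, and ended at 170874227 after 10.4 kb, and 2 more regions carried the cover to 170880787. The last region lying within TBP ended 1930 and 1171 bp before the gene's end in the 2 replicates, and the region across the end began after a short uncalled stretch. In WT mock the first TBP regions began 1259 and 1644 bp after the start, and in KO PMA 379 and 4565 bp after it. In KO mock the first one lay 7380 and 5734 bp into the gene.

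Inside TBP there were 2 short stretches called in 7 of 8 libraries, and no position of the locus was called in all 8. The first spanned 785 bp from 170869208 to 170869993, 5.79 kb from the TBP start, and KO mock replicate 1 lacked it. The second spanned 471 bp from 170870801 to 170871272, 7.38 kb from the start, and KO mock replicate 2 lacked it. At the first stretch KO regions reached the highest folds over input of the gene, 9.16 in KO PMA replicate 1 and 7.55 in KO mock replicate 2, both over a low input of 2.02 and 1.90 tags per kb at 10 M. These are the 2 regions of TBP at 6-fold or more, so that with only such regions kept the TBP difference turned to 0.42 (log2) for KO PMA against WT PMA and to 0.44 for KO mock against WT mock, on 785 and 843 bp of covered length.

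PSMB1 showed the same order of groups, with a wide spread between the WT PMA replicates. Regions covered 1.83 and 3.52 kb of its 18.2 kb in KO PMA and 1.29 and 0.50 kb in KO mock, against 14.5 and 7.60 kb in WT PMA, with 6.64 and 4.79 kb in WT mock. The groups did not overlap in any of the 4 comparisons, but the WT PMA replicates differed from each other by more than WT PMA replicate 2 did from WT mock replicate 1. KO PMA held 0.242-fold the covered length of WT PMA and KO mock 0.156-fold that of WT mock. The normalised tags of PSMB1 summed to 24.1 and 52.5 in KO PMA and 23.6 and 8.97 in KO mock, against 286 and 170 in WT PMA, with 121 and 74.3 in WT mock. The tags of KO PMA replicate 1 and KO mock replicate 1 thus lay close together. By these tags, PMA libraries held 2.34-fold as much as mock libraries in WT and 2.35-fold as much in KO. By covered length they held 1.93-fold as much in WT and 2.99-fold as much in KO. At a common tag threshold the KO difference in covered length between treatments turned to −0.19 on the log2 scale, where the lists as called gave 0.95.

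In WT PMA the cover of PSMB1 came in stretches rather than as 1 region. Replicate 1 had 5.56 kb from 170856346 to 170861910 and 4.34 kb from 170851106 to 170855443, with 99.3 and 86.4 normalised tags. Replicate 2 had 5.43 kb from 170850183 to 170855610 with 124 normalised tags and 2.18 kb from 170857465 to 170859640. In KO libraries no PSMB1 region was longer than 1.87 kb, which was the length of the one from 170859023 to 170860892 in KO PMA replicate 2.

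The 1003 bp between PSMB1 and TBP, where both genes start, held no called region in any of the 8 libraries. The uncalled stretch around it measured 3.35 and 7.09 kb in KO PMA and 19.1 and 7.77 kb in KO mock, against 1.72 and 4.22 kb in WT PMA, with 5.28 and 3.40 kb in WT mock. It was narrowest in WT PMA replicate 1, where the last PSMB1 region ended 507 bp before the PSMB1 limit and the TBP region began 205 bp after the TBP limit. No library had a region across either of these limits. At the other end of TBP, regions did cross the gene limit, in all 4 WT libraries and in no KO library.

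Distal of TBP, where PDCD2 lies, no region was called in either KO mock library. Covered length was 2.13 and 2.95 kb of 38.0 kb in KO PMA and 0 in both KO mock libraries (no fold is given for them), against 20.9 and 18.5 kb in WT PMA, with 18.4 and 11.8 kb in WT mock. Every KO library lay far below every WT library, and KO PMA held 0.129-fold the covered length of WT PMA. The normalised tags of this stretch summed to 33.4 and 48.8 in KO PMA, against 400 and 343 in WT PMA, with 312 and 189 in WT mock. In WT PMA a single long region started inside the end of TBP and ran on beyond it, from 170881051 to 170892743 in replicate 1 (11.7 kb, 256 normalised tags) and from 170881456 to 170893688 in replicate 2 (12.2 kb, 233 normalised tags). In WT mock the longest distal region lay further out, from 170895758 to 170903321 in replicate 1 and from 170895407 to 170898532 in replicate 2. The WT groups did not overlap, at 1.30-fold as much covered length under PMA as under mock, but WT PMA replicate 2 and WT mock replicate 1 lay close together. In KO PMA the regions nearest to TBP began 1253 and 1242 bp beyond its end, and both replicates had one from about the same position (170883211 and 170883200), each 500 bp long.

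**Figure D3:**
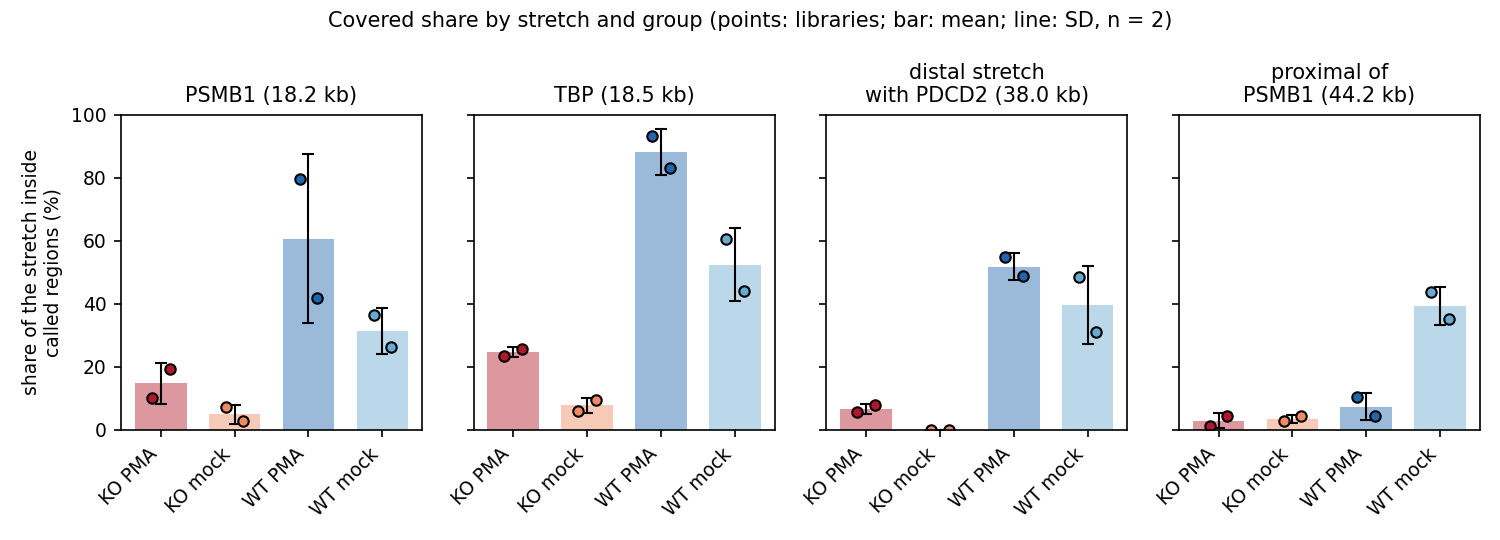
Share of each stretch inside called regions in percent, for PSMB1, TBP, the distal stretch with PDCD2 and the stretch proximal of PSMB1, by group (points are libraries, bars the mean, lines the SD, n = 2). TBP reaches 93.4 and 83.0% in WT PMA, and the proximal stretch is the one where WT PMA lies far below WT mock.

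Proximal of PSMB1 the WT groups stood the other way round. Covered length there was 0.50 and 1.99 kb of 44.2 kb in KO PMA and 1.17 and 1.94 kb in KO mock, against 4.56 and 1.91 kb in WT PMA, with 19.3 and 15.5 kb in WT mock. WT mock thus stood apart from the other 3 groups, while KO PMA overlapped with both WT PMA and KO mock. WT PMA held 0.186-fold the covered length of WT mock in this stretch, where it held 1.93-fold in PSMB1 and 1.68-fold in TBP. Of the covered length in the 120 kb, PSMB1 and TBP held 70.2 and 62.7% in KO PMA, 67.4 and 53.8% in KO mock, 55.6 and 52.9% in WT PMA, and 32.2 and 32.2% in WT mock. The genes make up 30.6% of the 120 kb, so that WT mock regions lay in them about as often as their length, and those of the other groups more often.

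Just outside the 120 kb, on the proximal side, WT PMA again held less covered length than WT mock. KO mock libraries held more there than KO PMA and WT PMA libraries, unlike within the 120 kb. The nearest region on the proximal side ended 82.1 and 112 kb before it in KO PMA, 16.4 and 17.5 kb in KO mock, and 75.1 and 88.3 kb in WT PMA. In WT mock it ended 0.215 and 2.85 kb before it, and in replicate 2 a further region lay across the border. The 100 kb before the border held 0.693 and 0 kb of regions in KO PMA, 3.50 and 6.50 kb in KO mock, 1.63 and 0.50 kb in the WT PMA libraries, and 16.3 and 19.0 kb in WT mock. On the other side, towards the chromosome end, a single region of 0.50 kb in WT mock replicate 2 was the only one in any library.

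**Figure D4:**
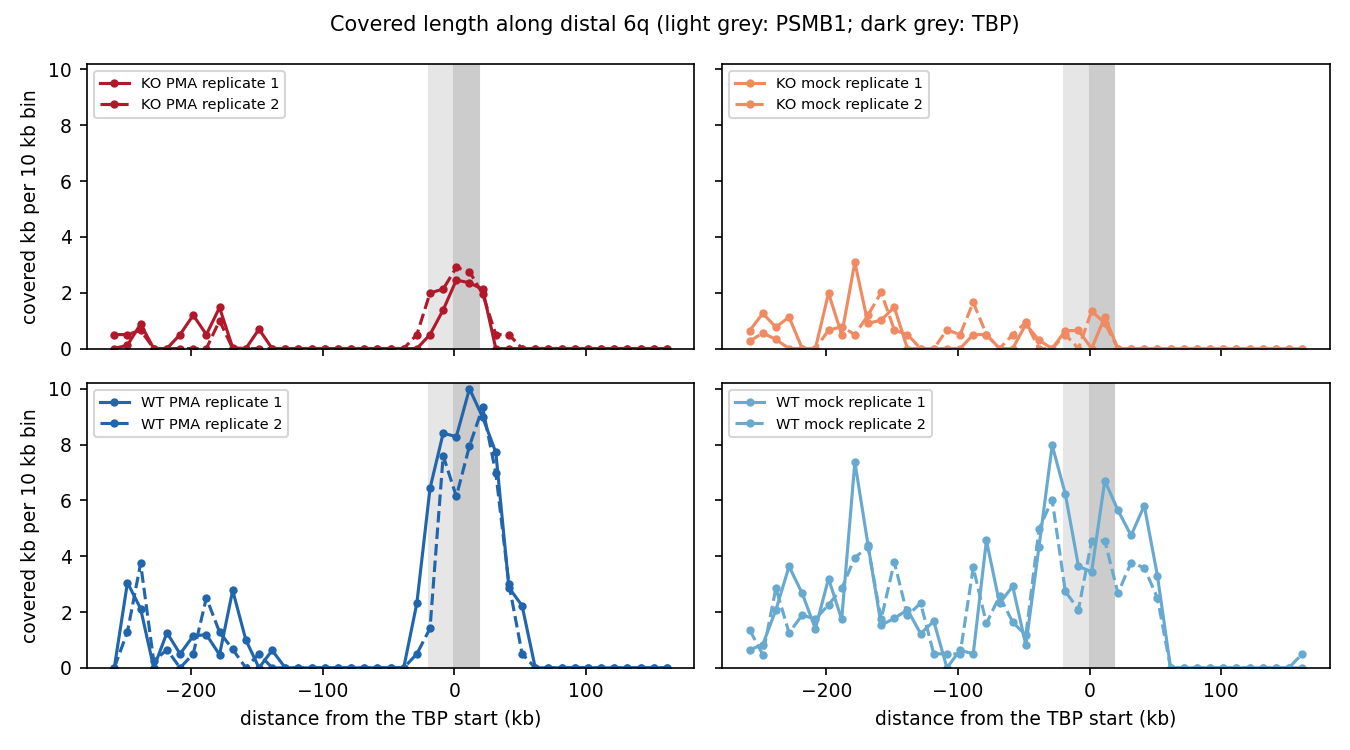
Covered length per 10 kb bin in kb against the distance from the TBP start, with 1 panel per group and 1 line per replicate, PSMB1 in light grey and TBP in dark grey. WT PMA forms a block over both genes and just beyond TBP that reaches 10 kb per bin, WT mock extends to the proximal side, and the KO PMA lines stay at or below 2.91 kb per bin.

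How far replicates overlapped in position differed by group and by stretch. Over the 120 kb the share of covered positions called in both replicates (Jaccard index) was 0.228 in KO PMA, 0.118 in KO mock, 0.578 in WT PMA and 0.422 in WT mock. Within TBP it was 0.169 in KO PMA, 0.178 in KO mock, 0.809 in WT PMA and 0.585 in WT mock. Random overlap alone gives a higher index where more is covered, so groups with unlike cover are not directly comparable. The 2 KO values did not follow the mean share of TBP covered, at 24.6% in KO PMA and 7.78% in KO mock. In the proximal stretch WT PMA had the lowest value, at 0.224 in KO PMA, 0.141 in KO mock, 0.110 in WT PMA and 0.389 in WT mock. Positions called in any KO library made up 23.1 kb of the 120 kb and those called in any WT library 89.9 kb. They shared 21.6 kb, which was 93.7% of the KO positions and 24.0% of the WT positions, and within PSMB1 and TBP every KO position was also called in a WT library. WT libraries together called 16.6 of 18.2 kb of PSMB1 and 18.1 of 18.5 kb of TBP, which leaves little room for a KO position outside them. Both WT PMA replicates called 14.6 kb of TBP, of which 3.83 kb was in no WT mock library and 5.93 kb in no KO library.

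The folds of the regions over input were modest beside those of the whole lists. The median fold over input, by the authors' ratio, was 3.85 and 3.73 in KO PMA, 3.65 and 4.82 in KO mock, 3.76 and 3.49 in WT PMA, and 3.73 and 3.83 in WT mock. Over all regions of a library the median was 4.07 to 4.37 in KO and 4.61 to 4.92 in WT, so that only KO mock replicate 2 had the higher median at the locus. Only 15 of the 146 regions reached 6-fold. In the whole lists 8071 of 42896 and 8043 of 37893 regions did so in KO PMA, and 4791 of 24773 and 4984 of 24340 in KO mock. The counts were 12646 of 42546 and 11072 of 36252 in WT PMA, and 4575 of 14324 and 3350 of 11959 in WT mock. The highest folds at the locus were 13.7 in WT PMA replicate 2 (170902733 to 170903650) and 13.0 in WT mock replicate 1 (170888140 to 170889683), both distal of TBP. Input tags in the regions were 3.87 to 5.10 per kb at 10 M in KO libraries and 4.48 to 5.77 in WT libraries, where the medians over all regions were 4.25 to 4.36 in KO and 3.18 to 3.23 in WT. The 1 input library came from WT mock cells and served all 4 groups.

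Against the rest of the genome, TBP and the stretch just beyond it were among the most covered in WT PMA. The locus was selected on covered length in these same libraries, so its ranks are a description only. Of 26365 bins of 20 kb covered in at least 2 libraries, the bin from 170860001 to 170880000, which holds most of TBP, ranked 1 in WT PMA replicate 1 with 18.3 kb and 7 in replicate 2 with 14.1 kb. The next bin, from 170880001 to 170900000, which also holds the end of TBP, ranked 6 with 16.7 kb and 1 with 16.3 kb. The outer bin of the distal stretch, from 170900001 to 170920000, ranked 943 with 5.10 kb and 1254 with 3.50 kb. The TBP bin ranked 2748 and 1650 in KO PMA with 4.81 and 5.67 kb, 4493 and 2000 in KO mock with 1.13 and 2.26 kb, and 76 and 84 in WT mock with 10.1 and 9.10 kb. The PSMB1 bin, from 170840001 to 170860000, ranked 19 and 77 in WT PMA. In WT mock the highest rank belonged to the bin proximal of it, from 170820001 to 170840000, at 45 and 53.

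In limma on log2(covered bp + 1000) over all these bins, with an adjusted p under 0.05, the 6 bins of the locus were counted beside the share of all bins called. Under PMA, 3 of 6 were lower in KO than in WT (those from 170860001 on), where 15.8% of all bins were lower and 17.2% higher. Under mock, 5 of 6 were lower in KO than in WT, all but the PSMB1 bin, where 2.37% of all bins were lower and 8.34% higher. In WT cells the bin from 170880001 was higher after PMA and the 2 proximal bins were lower, with 18.2% of all bins higher and 2% lower. Of all the alternatives run, only the fit without WT mock replicate 1 still called a locus bin higher in WT PMA. In KO cells the TBP bin and the one after it were higher after PMA (0 to 2 bins over the alternatives, with 0 at 6-fold and with equally many regions) and the first proximal bin was lower, with 12.6% of all bins higher and 3.25% lower. The locus was chosen with such differences in view, so its counts carry no weight beyond a description, and the comparisons share libraries with each other.

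These counts of locus bins moved with single libraries and with the scaling. Under mock, 5 lower bins became 2 without WT mock replicate 1 and 2 without WT mock replicate 2, and 3 at a common tag threshold. In KO cells the 3 called bins became 1 without KO PMA replicate 1, 1 without KO PMA replicate 2 and 1 without KO mock replicate 2. In WT cells they became 1 without WT mock replicate 2. Over all bins, the WT response to PMA was 4798 higher and 526 lower as called but 1152 and 1854 after centring each library on its median, with the median bin at 0.35 before, and 1067 and 869 when every library gave equally many regions. The KO response was 3317 and 856 as called, with the median bin at 0.29, 1289 and 3322 after centring and 838 and 437 with equally many regions. KO against WT under mock was 2199 and 625 as called, 983 and 1000 with equally many regions and 2444 and 259 at a common tag threshold. Under PMA it was 4524 and 4172 as called and 4319 and 1631 at a common tag threshold. For KO against WT, centring left every count over all bins as it was under both treatments. The unchanged 5 lower locus bins under mock and 3 under PMA are therefore no check on the scaling. Equally many regions gave 6 lower locus bins under mock and 4 under PMA, with WT mock replicate 2 left whole by that cut.

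With bins near the locus left out, those with the most similar 8 values to the TBP bin lay on other chromosomes. Of these 5 bins, 4 lay 1.92 to 629 kb before the last position called there, and the most similar one lay 17489 kb before it. How many of all bins lie that near to a last called position was not counted, so nothing is read from these distances. The likeness was the mean absolute difference in log2(covered bp + 1000) over the 8 libraries, which had a median of 2.47 over all bins. The closest bin was that from 123580001 to 123600000 on chromosome 9, at 0.30, with 6.90 and 6.34 kb in KO PMA, 1.14 and 1.5 kb in KO mock, 16.6 and 13.4 kb in the WT PMA libraries, and 9.47 and 3.51 kb in WT mock. The next lay on chromosome 21 from 47880001 to 47900000 at 0.32, with 4.12 and 2.87 kb in KO PMA, 1.45 and 1.32 kb in KO mock, 16.7 and 12.9 kb in the WT PMA libraries, and 12.3 and 12.7 kb in WT mock. It was followed by chromosome 7 from 158480001 to 158500000 at 0.35, chromosome 8 from 146280001 to 146300000 at 0.41 and chromosome 13 from 115040001 to 115060000 at 0.42.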

How the data were processed

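γH2AX ChIP-seq of K562 cells was analysed from 8 region lists. The submitters' processing notes name CASAVA 1.4, BWA, HOMER and build hg19. Each library's regions were called by the authors on their own against the WT mock input, per the file headers: windows of 500 bp at p = 0.001 for tags and at least 2-fold over input at p = 0.0001 were stitched, with at most 1 tag per bp. The deposited signal is the tags of a region per 10 M tags of the library. The authors also deposited, per region, the unscaled tag count (5 libraries) or a signal scaled to the input depth of 18.6 M (3 libraries), the fold (ratio) over input, the HOMER score and a Poisson p-value.

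Covered length is the number of base pairs inside merged regions. A region across a limit gave each side its share of tags by length. Bins of 20 kb covered in at least 2 libraries, on chromosomes 1 to 22 and X, were fitted with limma 3.58.1 (R 4.3.3, mean-variance trend, all 8 libraries, 4 groups) on log2(covered bp + 1000), two-sided, Benjamini-Hochberg adjusted. The script was tested on simulated data. Python 3.11.15, numpy 2.4.6 and pandas 2.3.3 did the rest. The members, the bins and the alternatives were chosen with earlier results of these data known. The named places follow a rule: the 3 genes in every library, and the 5 bins most like the TBP bin. Of these bins at most 1 was taken per 10 Mb and none within 1 Mb of the locus. The planned gene lists of the proteasome and TFIID were not run, since no hg19 annotation was used here. The groups came from the sample titles. The tests rest on differences between 2 libraries a group, which the labels do not tie to separate cultures.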

Additional observations from a re-analysis of the deposited data

How the results depend on the processing

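Alternatives changed 1 choice at a time, and values are log2 differences of covered length unless said otherwise. The lower cover of the 120 kb in KO than in WT kept its direction under each alternative run. Under PMA (−2.10) it was −0.81 with only regions of at least 6-fold, −2.80 at a common tag threshold, −2.66 when regions under 1000 bp were left out and −4.16 with the same number of regions, and −2.37 to −1.84 without single replicates. Under mock (−3.31) it was −1.46 at 6-fold, −5.06 from 1000 bp and −3.93 with the same number of regions, and −3.53 to −3.08 without single replicates. The 6-fold minimum left 2 and 0 locus regions in KO PMA and 0 and 1 in KO mock. It left 2 and 3 in WT PMA and 4 and 3 in WT mock, so the 6-fold values rest on few regions. The same number meant the 11959 regions of highest score in each list, which cut the lists unequally. WT mock kept 36 of 37 and 38 of 38 locus regions, and KO mock 3 of 6 and 4 of 6. Under mock this alternative could therefore hardly narrow the difference, and its kept direction is no check. The WT difference between PMA and mock (0.074) had no stable direction, at −0.32, 0.41, 0.43 and −0.031 for 6-fold, a common tag threshold, 1000 bp and the same number of regions, and −0.15 to 0.30 without single replicates. The KO difference between PMA and mock (1.28) was 0.33, 0.76 and 2.84 for the first 3 and reversed to −0.27 with the same number of regions, and 1.01 to 1.55 without single replicates.

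Among the stretches, the 6-fold minimum also changed the sign for PSMB1 (−0.28) and the distal stretch (−0.019) in WT PMA against mock. It did so for TBP in KO PMA against mock (−0.023) and in KO against WT (0.42 under PMA, 0.44 under mock). These values rest on few regions, for TBP on 1 of 785 bp in KO PMA replicate 1 and 1 of 843 bp in KO mock replicate 2. Those of −0.019 and −0.023 are too small to be read as reversals. For KO PMA against mock, PSMB1 turned to −0.19 with a common tag threshold and −0.65 with the same number of regions, TBP to −0.22 with the same number, and the proximal stretch to 0.66 from 1000 bp and 0.24 without KO PMA replicate 1 (lists as called −0.25, and −0.75 without KO PMA replicate 2). The cause was not tested.

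At 6-fold, 0 locus bins were called in limma in any comparison (5 tested, and 1, 1, 1 and 0 at an unadjusted p under 0.05 for KO against WT under PMA and mock and PMA against mock in WT and KO). Under mock, KO against WT gave 3 with a common tag threshold, 8 of 12 with bins of 10 kb and 2 to 4 without single replicates. Under PMA it gave 5 of 12 with bins of 10 kb and 2 to 4 without single replicates. PMA against mock in WT gave 1 from 1000 bp, 1 with a pseudocount of 200 bp and 1 to 2 without single replicates. In KO it gave 1 from 1000 bp, 0 with the same number of regions (1 at an unadjusted p under 0.05) and 1 to 2 without single replicates.

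Replicate numbers are shared between groups, but deviations from group means correlated at −0.043 to 0.089 between same-numbered libraries, so the numbers were not taken as pairs. With the replicate block, limma called 3 and 4 locus bins for KO against WT under PMA and mock, and 2 and 1 for PMA against mock in WT and KO. What depth each list would need was not tested, and uncalled positions were not detectable as regions at 15.6 to 27.2 M tags.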
